A study of Mus musculus with 4 samples.

Results

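The pericytes and smooth muscle cells of tendon vessels described here are the cells that the authors' deposited annotation labels Pericytes. They were chosen by that label alone and number 55 of 580 cells in library 1, 25 of 246 in library 2, 11 of 256 in library 3 and 16 of 109 in library 4, which is 8.98% of the 1191 cells in all. The series is a single-cell RNA sequencing atlas of the mouse Achilles tendon, the cord that joins the calf muscle to the heel bone. It holds 4 libraries of 1 group, all from male C57Bl/6 mice aged 6 weeks, with no allele or treatment named. Whether each library holds 1 animal or a pool is not stated, so p-values measure the spread between these 4 libraries, which may be technical.

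Pericytes and vascular smooth muscle cells are the mural cells of blood vessels. Smooth muscle cells ring arteries and arterioles and set their calibre by actin and myosin contraction, while pericytes sit on capillaries and venules inside the basement membrane that they share with the endothelium. Both depend on signals from endothelial cells, with PDGF-B acting on PDGFRB and Notch ligands acting on NOTCH3 among the best known, and no single gene separates a pericyte from a smooth muscle cell.

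The label was borne out by its defining markers. Acta2, the smooth muscle actin, stood at 9149, 11284, 2554 and 7195 CPM in the pericytes of libraries 1 to 4. CPM is the gene's count of unique molecular identifiers (UMIs, 1 per captured RNA molecule) summed over a library's pericytes, per 1000000 UMIs of those cells. Its highest mean in any other label was 48.4 CPM, in Endothelial cells 2. Myh11, the smooth muscle myosin heavy chain, stood at 5789, 6262, 1599.9 and 3975 CPM against at most 53.0 CPM elsewhere. For both contractile markers library 3 was the lowest of the 4. Rgs5, a regulator of G-protein signalling used to mark pericytes, stood at 1672, 2386, 7005 and 3211 CPM, with library 3 the highest, and reached 613 CPM in bursal fibroblasts. Notch3, the mural Notch receptor, was the most even of the 4 markers at 1004, 1108, 914 and 804 CPM, against at most 36.1 CPM in another label. Every pericyte held 10 or more UMIs of these 4 genes, with a median of 148. So did 12 of 190 cells labelled Endothelial cells 1, 5 of 74 Endothelial cells 2 and 4 of 40 bursal fibroblasts. The labels were formed from these same counts, so these levels describe the label and are given with no test.

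**Figure D1:**
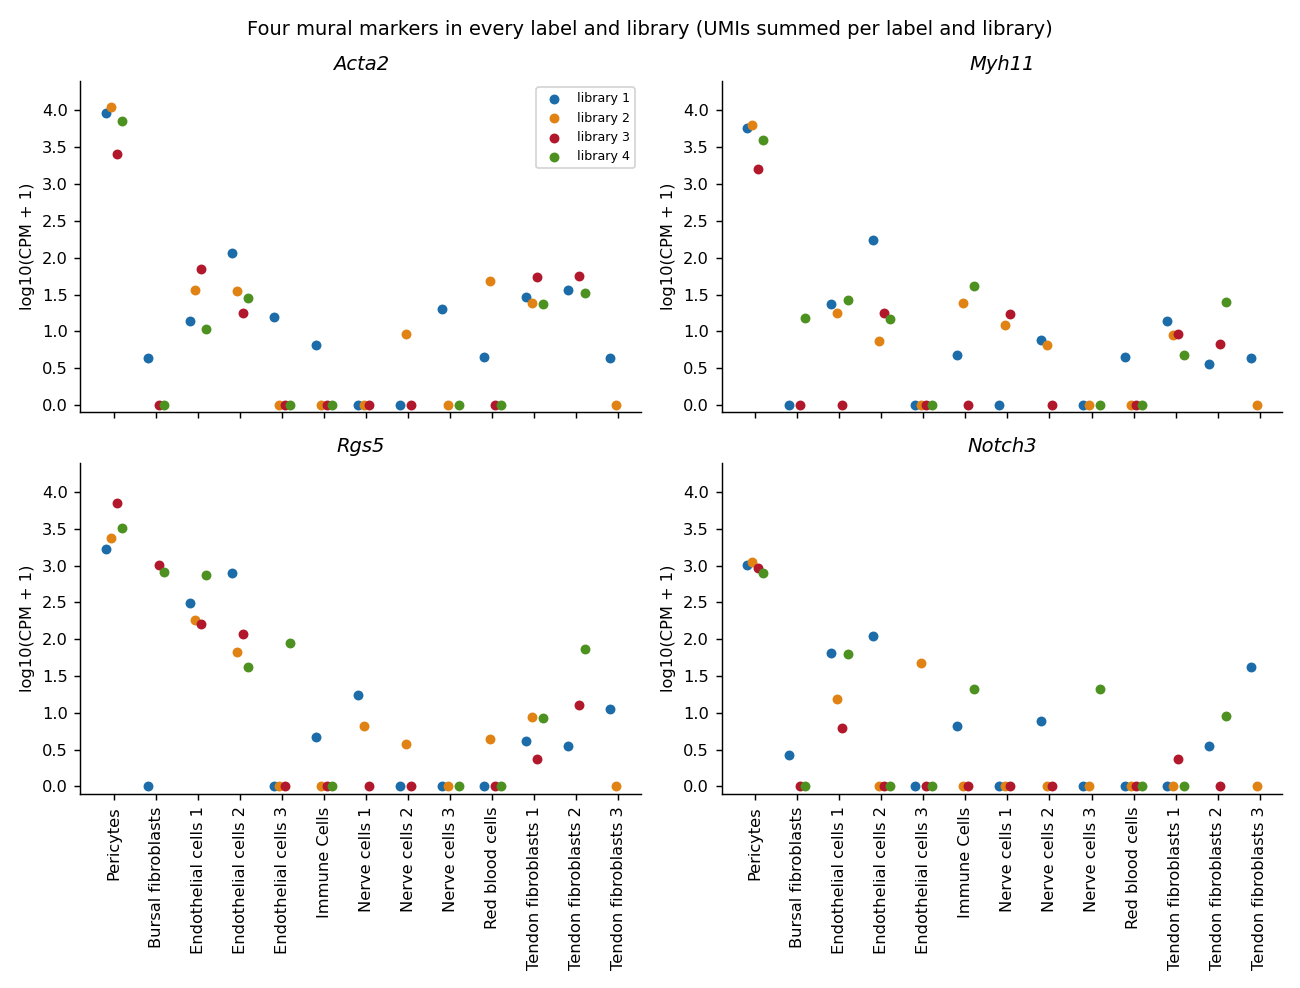
Level of Acta2, Myh11, Rgs5 and Notch3, as log10(CPM + 1) of summed UMIs, in each label (horizontal axis) with at least 3 cells in a library. Each point is 1 library; the pericyte points stand above those of every other label for all 4 genes, and library 3 is lowest for Acta2 and Myh11 and highest for Rgs5.

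Detection at equal depth was gauged by the share of cells with at least 1 UMI after each cell was thinned to 2400 UMIs, which left out 114 shallower cells. The part of free RNA in these shares was not tested. Notch3 was seen in 89.4% of pericytes (exact 95% interval 81.9 to 94.6; 99.1% before thinning) and in 3.98% of Endothelial cells 1. Acta2 was seen in 94.2% of pericytes (96.3% before thinning) and in 8.07% of Tendon fibroblasts 1, where Myh11 and Tagln were each seen in 1.24%. In Endothelial cells 1 Acta2 was seen in 5.68% and Myh11 in 2.84%, but Tagln in 30.7%, beside 95.2% of pericytes. Rgs5 was less general, at 67.3% of pericytes (interval 57.4 to 76.2; 79.4% before thinning), beside 18.2% of Endothelial cells 1. Kcnj8, the pore of the vascular ATP-sensitive potassium channel, was seen in 8.65% of pericytes (20.6% before thinning). Median depths before thinning were 9188 UMIs in pericytes, 7343 in Endothelial cells 1 and 8824 in Tendon fibroblasts 1. Intervals cover counting error only.

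Endothelial RNA was present in some pericytes. 15 pericytes carried 29 to 255 UMIs of 8 endothelial markers (Pecam1, Cdh5, Kdr, Egfl7, Cldn5, Tie1, Emcn and Ptprb), while the other 92 carried 0 to 3, of which 68 carried none. These endothelial-rich pericytes came from all libraries (8, 3, 2 and 2 cells) and were deep, with a median of 20196 UMIs against 8700 in the rest. No cell outside the pericyte and endothelial labels reached 10 UMIs of that list. Doublets were not called here, and whether these cells are doublets was not tested. Tests and counts were therefore run with and without them. A value without them is given for many, but not all, of the genes whose call or direction differed. Markers of other cell types were low in pericytes: the 10 fibroblast markers summed to 358 to 914 CPM per library against 10826 to 79569.5 CPM in all other cells, with Lum, Pdgfra and Scx at 0. The 5 lymphatic markers summed to 17.5 to 80.7 CPM with Prox1, Ccl21a and Mmrn1 at 0, and the 7 immune markers to 13.4 to 29.1 CPM with Ptprc and Cd52 at 0. Red blood cell markers summed to 94.1 to 349 CPM, skeletal muscle markers to 0 to 20.4 CPM and adipocyte markers to 0 to 13.4 CPM, with Tnnt3, Ckm, Tnni2, Plin1 and Cidec at 0.

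The pericyte share of libraries 1 to 4 was 9.48% (exact 95% interval 7.22 to 12.2), 10.2% (6.69 to 14.6), 4.30% (2.16 to 7.56) and 14.7% (8.63 to 22.7), a mean of 9.66 ± 4.25% (SD, n = 4 libraries). Without endothelial-rich cells the mean was 8.35 ± 3.83%. Library 3 was lowest, and its interval overlapped those of libraries 1 and 2 but not that of library 4. Endothelial cells outnumbered pericytes in every library, by 2.73, 3, 3.82 and 2.06 to 1. These are shares of captured cells after dissociation. Total UMIs over all cells ranged from 1375111 to 5603366 per library. Pericytes had a median mitochondrial share of 7.84% of UMIs against 4.10% in other cells, and no cell barcode was shared between libraries.

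Genes of the contractile apparatus led the pericyte profile. Among genes at 100 CPM or more in the pericytes, 5.8% (102 of 1760) stood 4-fold or more above all other cells in every library, and so did 15 of the 17 contractile genes at that level. Without endothelial-rich cells 137 genes did. In the other direction, among genes at 100 CPM or more in the other cells, 78 of 1469 (5.31%) were 4-fold or more lower in every library, none of them contractile. A gene such as Pln enters the first count only through its level in the pericytes, so these counts describe the labelled cells and test nothing. All 18 members of the contractile list were in the table, and 17 had their highest mean in pericytes. Tagln (transgelin) stood at 5987, 6886, 2568 and 4951 CPM, Myl9 (the regulatory light chain) at 3454, 5547, 1506 and 3154 CPM and Tpm2 (a tropomyosin) at 3723, 4500.1, 968 and 3472 CPM. In each of these the pericytes of library 3 were the lowest and those of library 2 the highest. Mylk, the kinase that switches on smooth muscle myosin, stood at 2181, 2202, 981 and 1723 CPM, and Cnn1 (calponin) at 127, 195, 13.4 and 75.1 CPM with UMIs in 39 cells. Pln (phospholamban, the brake on the calcium pump of the sarcoplasmic reticulum) stood at 367, 528, 40.3 and 309 CPM and was seen in 61 cells, against 1 UMI in all other cells together. Smtn (smoothelin) was the exception, with its highest mean in Nerve cells 1 (762 CPM against 205 ± 92.4 in pericytes, SD, n = 4). Actg2, the actin of visceral smooth muscle, was near absent, with 22 UMIs in 5 cells, all from library 1. Values per 3' UMI are not scaled by gene length, so levels are compared within a gene and not between genes.

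Myl9 is shown because, among the contractile genes searched, only its promoter window held a CArG box. That element is bound by serum response factor, which drives many smooth muscle genes. RefSeq promoter sequences matched 14 of the 18 contractile genes and 13 of the 18 genes of the mural list. Searched over the 250 bases before the start on both strands, 1 of those 14 contractile genes and 0 of those 13 mural genes held the box. Of all promoters 482 of 32851 (1.47%) did. The Myl9 window lies on the plus strand at chr2:156775214-156775463 (GRCm38.p6), with the box, in capitals, beginning 161 bases before the start:
Myl9 promoter: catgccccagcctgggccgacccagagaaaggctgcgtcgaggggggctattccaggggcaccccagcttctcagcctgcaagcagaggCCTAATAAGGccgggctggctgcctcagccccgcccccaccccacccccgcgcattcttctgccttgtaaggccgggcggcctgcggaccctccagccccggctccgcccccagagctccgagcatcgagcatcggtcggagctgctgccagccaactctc
A match is a description of the letters in this window. Boxes further away or inside genes were not searched.

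The 20 genes with the largest ratio of their pericyte mean to the highest mean of any other label joined contractile proteins to channels, receptors and signalling enzymes. Contractile members among them were Acta2, Myh11, Tpm2, Lmod1, Myl9 and Pln. Membrane and calcium-handling members were Scn4b (a sodium channel beta subunit), Kcne4 and Kcnab1 (potassium channel subunits) and Jph2 (junctophilin, which ties the surface membrane to the sarcoplasmic reticulum). Receptors and their regulators were Npy1r (a neuropeptide Y receptor, the peptide released with noradrenaline by sympathetic nerves) at 523, 502, 524 and 371 CPM, Olfr558 (an olfactory-family receptor) at 378, 370.4, 188 and 336 CPM and Rgs4 at 596, 545, 389.9 and 618 CPM. Npy1r was lowest in library 4, Olfr558 in library 3, and Rgs4 in library 3. Carmn, the long non-coding RNA that hosts the miR-143/145 cluster, stood at 207, 213, 282 and 189.9 CPM against at most 6.75 CPM in another label. Map3k7cl stood at 198, 233, 0 and 194 CPM and had 0 UMIs in all other cells. Kcne4 ran the other way across libraries, at 65.4, 96.2, 282 and 88.3 CPM, with library 3 the highest. Cap2, Dgkb, Grip2, Myom1 and the unnamed transcript Gm13861 completed the set, at means of 149, 197, 119.9, 232 and 133 CPM.

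To test differences on counts that had no part in forming the groups, every UMI was put at random into a clustering part or a test part. Clustering the first part gave 20 clusters, 2 of which held mostly labelled pericytes. These held 114 cells, all of the labelled pericytes and 7 Endothelial cells 1 that carried 100 to 233 endothelial UMIs. The main comparisons include all of these cells. In the runs without endothelial-rich cells, those 7 were left out together with the endothelial-rich pericytes. Leaving all of them out lowered the held-out pericyte UMIs of libraries 1 to 4 from 337484, 171327, 37106 and 141917 to 193166, 137136, 19347 and 71377. Held-out pericyte values below include these cells unless stated. On the test part, the 2 pericyte clusters together differed from all other cells, at an edgeR quasi-likelihood adjusted p under 0.05, in 459 genes that were higher and 384 that were lower of 6301 tested (7.28% and 6.09%). Against the endothelial clusters 522 genes were higher and 594 lower of 3314 (15.8% and 17.9%). Against the tendon fibroblast clusters 505 were higher and 594 lower of 2952 (17.1% and 20.1%). Without endothelial-rich cells the counts were 636 and 762 of 5500 (11.6% and 13.9%), 550 and 830 of 3037 (18.1% and 27.3%), and 477 and 554 of 2557 (18.7% and 21.7%). Leaving out library 1 lowered the first count, over both directions, to 365. The comparisons share the pericyte sums, so their results are given side by side. The labels, which rest on all UMIs, picked the clusters to compare, so the test part is not wholly free of them.

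Contractile genes were higher in pericytes against each of these groups. Of the 18, 16, 14 and 15 passed the filter on low counts, and 15, 14 and 15 were called higher, with none lower. Of all genes tested 7.28%, 15.8% and 17.1% were higher. The filter can be met by the pericyte counts alone. A member near 0 elsewhere thus entered through its level in pericytes and could only be called higher. The median log2 differences of the tested members were 4.98, 5.16 and 4.71, beside -0.041, -0.017 and -0.021 over all genes tested. Without endothelial-rich cells 16 of 16, 14 of 14 and 15 of 15 were higher. Held-out Acta2 stood at 7298, 11364, 2425 and 5834 CPM in the pericyte clusters and 27.2, 24.4, 36.8 and 17.7 CPM in the endothelial clusters (log2 difference 8.23 ± 0.34 SE, edgeR adjusted p = 3.25e-08). The groups were far apart in every library. Myh11 stood at 4593, 6280.4, 1806 and 3129 CPM against 8.39, 11.6, 11.3 and 15.6 CPM in tendon fibroblasts (log2 difference 7.77 ± 0.38 SE, edgeR adjusted p = 4.13e-09), again with no overlap. Pln stood at 311, 625, 26.9 and 218 CPM against 0 UMIs in all other cells, at least 599-fold higher over the floor of 3 counts for the group (edgeR adjusted p = 9.45e-05). It passed the filter through the pericytes alone, so its call is given as a description. Des (desmin, the muscle intermediate filament) was higher against all other cells (log2 difference 5.65 ± 0.33 SE, edgeR adjusted p = 9.89e-06).

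Of the 18 mural genes, 15 were tested against all other cells and 11 were higher, 11 of 11 were higher against endothelial cells, and 8 of 11 were higher and 1 lower against tendon fibroblasts. Their median log2 differences were 3.27, 5.41 and 3.07. Among all genes tested 7.28%, 15.8% and 17.1% were higher, and 20.1% were lower against tendon fibroblasts. Without endothelial-rich cells 12 of 14, 10 of 10 and 8 of 11 were higher and none lower. Held-out Rgs5 stood at 1656, 2428, 6845 and 3248 CPM in pericytes, 253, 122, 169 and 112 CPM in endothelial clusters and 5.99, 11.6, 6.25 and 5.20 CPM in fibroblast clusters. It was higher than in either (log2 difference 4.33 ± 0.36 SE, edgeR adjusted p = 2.75e-06; log2 difference 8.60 ± 0.38 SE, edgeR adjusted p = 2.38e-09). Notch3 stood at 844, 1109, 1078 and 726 CPM against 38.9, 9.74, 7.35 and 0 CPM in endothelial clusters (log2 difference 5.77 ± 0.44 SE, edgeR adjusted p = 1.39e-06). Pdgfrb, the receptor for endothelial PDGF-B, stood at 400.0, 601, 970.2 and 712 CPM against 132, 198, 126 and 67.7 CPM in fibroblast clusters, a smaller gap (log2 difference 1.92 ± 0.30 SE, edgeR adjusted p = 1.70e-04) than against endothelial clusters (log2 difference 5.65 ± 0.40 SE, edgeR adjusted p = 8.79e-07), with no overlap in either. Gja4 (connexin 37) had 0 UMIs in fibroblast clusters against 124 to 323 CPM in pericytes (edgeR adjusted p = 1.60e-06). It passed the filter on low counts through the pericytes alone, so this call too is a description. Mcam (CD146, a mural and endothelial adhesion molecule) was higher against all 3 groups, by 2.83, 1.92 and 6.45 on the log2 scale. The member lower against fibroblasts was Ndufa4l2, a mitochondrial protein of the hypoxia response, at 308, 304, 512 and 289 CPM against 340.3, 547, 504 and 396 CPM, lower in 3 of 4 libraries (edgeR adjusted p = 0.0208). Without endothelial-rich cells its adjusted p was 0.211. Abcc9, the partner of Kcnj8 in the channel, was called against all other cells (log2 difference 4.01 ± 0.80 SE, edgeR adjusted p = 0.00925) but was not tested there without endothelial-rich cells, having too few counts.

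Genes that turn vasoactive signals into vessel tone were also higher. Of 20 genes of vasoactive signalling, 12, 10 and 8 were tested. Beside 7.28%, 15.8% and 17.1% of all genes tested, 8 of the list were higher in each comparison, at medians of 4.69, 4.95 and 5.42. In every case, with and without endothelial-rich cells, these were Ednra, Gucy1a1, Gucy1b1, Prkg1 (the kinase that cyclic GMP activates), Pde5a, Pde3a, Rgs4 and Rgs5. Gucy1a1 and Gucy1b1, the subunits of the nitric oxide receptor guanylyl cyclase, stood at 884, 855, 605 and 574 and 298, 280.0, 336 and 278 CPM in labelled pericytes, with UMIs in 104 and 91 cells. Held-out Gucy1a1 was at 29.8, 4.87, 14.7 and 11.8 CPM in endothelial clusters (log2 difference 5.55 ± 0.38 SE, edgeR adjusted p = 6.03e-07). Pde5a and Pde3a, which break down the cyclic nucleotides that relax smooth muscle, were higher against all other cells by 4.45 and 5.66 on the log2 scale. Ednra, the endothelin receptor of mural cells, stood at 185, 143, 161 and 172 CPM in labelled pericytes, even across libraries, and was higher against endothelial clusters (log2 difference 5.42 ± 0.43 SE, edgeR adjusted p = 2.02e-06). Its relative Ednrb was uneven, at 69.0, 20.4, 269 and 300.3 CPM. Npr1, a natriuretic peptide receptor, was lower than in endothelial clusters (log2 difference -2.85 ± 0.31 SE, edgeR adjusted p = 2.36e-05) and than in all other cells (log2 difference -1.71 ± 0.37 SE, edgeR adjusted p = 0.0143). Agtr1a (angiotensin receptor) was seen in 18 cells, P2rx1 (ATP-gated channel) in 37 and Adra1a (alpha-1A adrenergic receptor) in 19; Adra1b, Adra2c and Ptger3 had 4, 9 and 5 UMIs.

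Of 18 channel and calcium-handling genes, 12, 8 and 7 were tested, 9, 5 and 5 were higher, and 0, 1 and 1 lower. Over all genes tested 7.28%, 15.8% and 17.1% were higher and 6.09%, 17.9% and 20.1% lower. Cacna1c, the pore of the L-type calcium channel, stood at 129, 114, 108 and 92.8 CPM in labelled pericytes and was higher than in all other cells (log2 difference 4.31 ± 0.45 SE, edgeR adjusted p = 2.49e-04). Atp2a2, the calcium pump that phospholamban restrains, stood at 844, 1132, 458 and 733 CPM against 175, 128, 179 and 233 CPM on the test part (log2 difference 1.92 ± 0.35 SE, edgeR adjusted p = 0.00589). The Atp2a2 groups did not overlap, and library 3 was the lowest pericyte value. Ryr2 and Itpr1, which release stored calcium, were higher against all other cells by 5.91 and 1.42 on the log2 scale. Casq2 (calsequestrin, which holds calcium in the store) stood at 94.4, 87.5, 40.3 and 150.2 CPM in labelled pericytes and was higher too (CPM ratio 191, 95% counting interval 50.4 to 1622, edgeR adjusted p = 1.57e-04). Like Pln it passed the filter on low counts through the pericytes alone, so its call is a description. Ano1, a calcium-activated chloride channel, was higher against endothelial clusters (log2 difference 5.28 ± 0.36 SE, edgeR adjusted p = 6.04e-07). The member lower than in endothelial clusters was Itpr2, at 35.6, 5.84, 80.8 and 70.5 CPM against 199.8, 153, 191 and 94.4 CPM, and the member lower than in fibroblasts was Kcnma1, the pore of the large-conductance potassium channel, at 23.7, 46.7, 0 and 56.4 CPM against 64.7, 69.8, 83.8 and 135 CPM. Its beta subunit Kcnmb1 had 48 UMIs, and the T-type channel gene Cacna1h 96 UMIs; both were at 0 in library 3.

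Among Notch genes the receptor and its targets were higher. Of 15, 14 were tested against all other cells and 7 were higher (Notch3, Jag1, Heyl, Hey2, Hes1, Nrarp and Nrip2), beside 7.28% of all genes. Jag1, a ligand, stood at 290.4, 438, 108 and 282 CPM against 33.7, 51.3, 14.6 and 38.5 CPM, with no overlap (log2 difference 2.83 ± 0.24 SE, edgeR adjusted p = 8.38e-05). Heyl and Hey2, transcriptional targets of Notch, were higher by 4.97 ± 0.60 SE and 5.16 ± 0.57 SE on the log2 scale. Against endothelial clusters 4 genes were higher (Notch3, Jag1, Hes1 and Nrarp) and 4 lower (Notch1, Notch4, Jag2 and Dll1). Of all genes tested there 15.8% were higher and 17.9% lower. Hes1, a broad Notch target, stood at 1309.7, 1442, 889 and 669 CPM against 629, 796, 426 and 348 CPM (log2 difference 1.12 ± 0.18 SE, edgeR adjusted p = 4.06e-04), so the lowest pericyte library overlapped the highest endothelial one. Against fibroblast clusters, where 17.1% of all genes tested were higher and 20.1% lower, 5 of 7 were higher. Rbpj, the DNA-binding partner of Notch, was lower (log2 difference -1.21 ± 0.31 SE, edgeR adjusted p = 0.00638). One of those higher genes, Notch1, was not tested without endothelial-rich cells.

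Of 22 transcription factors and cofactors, 16 were tested against all other cells, 9 were higher and 1 was lower. Over all genes tested 7.28% were higher and 6.09% lower. Without endothelial-rich cells 10 were higher and 2 lower of 15. Myocd, the cofactor that directs serum response factor to smooth muscle genes, stood at 85.3, 125, 13.4 and 22.1 CPM in labelled pericytes against at most 3.23 CPM in another label and did not reach the count filter. Mef2c stood at 904, 782, 674 and 972 CPM against 378, 414, 412 and 761 CPM in endothelial clusters, overlapping between libraries (log2 difference 0.97 ± 0.21 SE, edgeR adjusted p = 0.00324). Tbx2 stood at 189.6, 280.2, 377 and 225 CPM against 0 to 2.59 CPM (CPM ratio 171, 95% counting interval 46.5 to 1422, edgeR adjusted p = 3.02e-07), and Ebf1 was higher than in fibroblast clusters (log2 difference 1.91 ± 0.33 SE, edgeR adjusted p = 3.29e-04). Tbx2 passed the filter on low counts through the pericytes alone, so its call is a description. Klf4, known to repress the smooth muscle programme in culture, was the member lower in every comparison, at 809, 432, 404 and 578 CPM against 1159.9, 1188, 1013 and 1275 CPM in all other cells (log2 difference -1.32 ± 0.25 SE, edgeR adjusted p = 0.00779). No pericyte library overlapped the others. Foxf2, a factor of brain pericytes, had no UMI in any pericyte, and Meox1 had 30 UMIs in 2 cells, all in library 4.

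Ligands and receptors of the vessel wall fell on opposite sides of the endothelial comparison. Of 29, 16 were tested, 3 were higher in pericytes (Pdgfa, Pdgfrb and Tgfb2) and 12 lower, at a median of -1.69, beside 15.8% and 17.9% of all genes tested. Among the lower ones were Pdgfb, Tek, Tie1, Kdr and Flt1, the endothelial PDGF ligand and the angiopoietin and VEGF receptors. Pdgfa stood at 356, 461, 243 and 359 CPM against 51.9, 63.3, 36.8 and 76.7 CPM (log2 difference 2.82 ± 0.23 SE, edgeR adjusted p = 2.62e-06), and Pdgfb at 193, 58.4, 26.9 and 190.3 CPM against 357, 458, 250.0 and 578 CPM (log2 difference -1.58 ± 0.33 SE, edgeR adjusted p = 0.00238); neither overlapped. These pericyte values include the endothelial-rich cells, and without them the Pdgfb difference was -3.10. 2 genes (Pdgfa and Pdgfrb) were then higher and 13 lower of 15, at a median of -6.34, or -4.28 with genes at 0 UMIs set at their bound. Of all genes tested 18.1% were then higher and 27.3% lower. Kdr and Tie1 are also among the markers that chose the cells left out, so their values without those cells test nothing. Cells were left out for their endothelial RNA, which favours lower levels of other endothelial genes, Pdgfb included. The counts and the median without those cells are therefore a description. Against fibroblast clusters Cxcl12, a chemokine of endothelial and stromal cells, was higher (log2 difference 1.47 ± 0.29 SE, edgeR adjusted p = 0.00108), but without the endothelial-rich cells its log2 difference was -0.78 (edgeR adjusted p = 0.234). S1pr3, a sphingosine-1-phosphate receptor, was higher against all other cells (log2 difference 3.73 ± 0.30 SE, edgeR adjusted p = 5.35e-05). Vegfa stood at 129, 166, 40.3 and 75.1 CPM in labelled pericytes and was higher against all other cells (log2 difference 1.44 ± 0.29 SE, edgeR adjusted p = 0.0106). Angpt1 and Angpt2, the ligands of Tek, were seen in 22 and 42 cells. Pdgfra had no UMI.

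Basement membrane and tendon matrix genes were compared next. Of 14 basement membrane genes, 5 of 11 tested were higher than in fibroblast clusters (Col4a1, Col4a2, Lama5, Lamc1 and Col18a1) and 1 was lower (Col15a1). Against endothelial clusters 4 of 13 were higher (Lama5, Lamb2, Lamc1 and Col18a1). Over all genes tested 17.1% were higher and 20.1% lower than in fibroblast clusters, and 15.8% higher than in endothelial clusters. Col4a1, a chain of type IV collagen, stood at 1316, 1219.9, 2129 and 2649 CPM against 363, 326, 173 and 224 CPM in fibroblasts (log2 difference 2.32 ± 0.31 SE, edgeR adjusted p = 4.19e-05) and 1401, 1753, 1779 and 1516 CPM in endothelial clusters (log2 difference 0.24 ± 0.20 SE, edgeR adjusted p = 0.403). Pericytes were above fibroblasts in every library, and their values interleaved with those of endothelial cells. Lama5 stood at 394, 537, 243 and 148 CPM against 121, 185, 118 and 118 CPM in endothelial clusters (log2 difference 1.46 ± 0.26 SE, edgeR adjusted p = 9.62e-04). Against all other cells Col4a1 was called only without endothelial-rich cells (log2 difference 0.92 ± 0.30 SE, edgeR adjusted p = 0.0254; edgeR adjusted p = 0.0634 with them). Col15a1 was lower against every group, and its adjusted p was 0.0402, 0.00621 and 7.62e-04 by edgeR. Of 18 genes of elastic and fibrillar matrix, 3 of 14 were higher than in fibroblasts (Eln, Sparcl1 and Timp3) and 9 lower. Of all genes tested there 17.1% were higher and 20.1% lower. Col1a1, the main collagen of tendon, stood at 207, 257, 647 and 521 CPM against 37045, 57629, 53791 and 45387 CPM (log2 difference -7.46 ± 0.34 SE, edgeR adjusted p = 2.76e-09). Sparcl1 stood at 4454, 6712, 2587 and 4157 CPM against 1199, 1622, 1470.4 and 1298 CPM in endothelial clusters (log2 difference 1.78 ± 0.21 SE, edgeR adjusted p = 4.41e-05). Timp3, a metalloproteinase inhibitor, was higher than in endothelial clusters (log2 difference 1.04 ± 0.21 SE, edgeR adjusted p = 0.00223), but its adjusted p without endothelial-rich cells was 0.0762. Eln (elastin) passed against fibroblasts (log2 difference 1.65 ± 0.42 SE, edgeR adjusted p = 0.00677) and not against endothelial clusters (edgeR adjusted p = 0.304).

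Of 12 integrin genes, 9, 7 and 7 were tested, and Itga7, Itga8 and Itgb1 were higher in every comparison. Among all genes tested 7.28%, 15.8% and 17.1% were higher. Itga8 stood at 263, 257, 94.1 and 146 CPM in labelled pericytes against at most 16.1 CPM in another label, and Itga7, a laminin receptor of muscle, at 222, 359, 121 and 216 CPM. Both were lowest in library 3. Held-out Itga7 was at 80.8 to 385 CPM against 0 to 14.3 CPM in endothelial clusters (log2 difference 5.05 ± 0.46 SE, edgeR adjusted p = 5.04e-06). Itga6 was lower than in endothelial clusters (log2 difference -1.89 ± 0.30 SE, edgeR adjusted p = 4.78e-04), and Itga5 and Itgb5 lower than in fibroblast clusters (edgeR adjusted p = 0.0181 and 0.00119).

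Of the genes with the largest differences in each comparison, those higher than in all other cells were Pln, Grip2, Scn4b, Nrip2, Acta2, Myh11, Lmod1, Gm13861, Olfr558 and Cap2. Each had at most 118 held-out UMIs in the other cells together. Those lower were the fibroblast genes Lum, Pdgfra, Pcsk6, Itgbl1, Cilp, Prg4 (lubricin) and Apod, and the globins Hba-a1 and Hba-a2. Higher than in endothelial clusters were Crispld2, Pi15, Gm13861, Acta2, Tpm2, Itga8, Myh11, Tbx2, Lmod1 and Rbm24 (an RNA-binding protein of muscle). Crispld2 stood at 625, 718, 619.8 and 352 CPM against 1.30, 0, 7.35 and 0 CPM, 407 against 2 UMIs. It passed the filter on low counts through the pericytes alone, so its call is a description. Lower than in endothelial clusters were Selp (P-selectin), Lbp, Ackr1, Lrg1, Aqp1 (a water channel), Chp2, Igf1, Ptgs1, Aplnr (apelin receptor) and Lhx6. Selp had 0 UMIs in pericytes against 209, 326, 331 and 94.4 CPM. With endothelial-rich cells left out the same rule named Ly6c1, Egfl7, Kdr, Adgrl4, Fbln2, Cyyr1, Emcn, Adgrg1, Jam2 and Fli1 instead, and all 8 endothelial markers were lower both with and without those cells. Against all other cells edgeR called 0 of those 8 with endothelial-rich cells in the pericyte sums (1 at an unadjusted p under 0.05, 0 by DESeq2) and 8 without them, all lower. Those 8 markers chose the cells that were left out. Their fall without those cells, Egfl7, Kdr and Emcn included, was set by that choice and tests nothing. The other endothelial genes named without those cells were favoured by the same choice and are a description. Higher than in fibroblast clusters were Mrvi1 (the target of cyclic GMP kinase on the calcium store), Gja4, Rgs5, Tagln, Tinagl1, Myh11, Olfr558, Adgrl4, Pcp4l1 and Lmod1. Mrvi1 stood at 287, 268, 189 and 176 CPM against 0 UMIs (at least 162-fold, edgeR adjusted p = 8.06e-07). Like Gja4 it passed the filter on low counts through the pericytes alone, so its call is a description. Adgrl4 is an endothelial gene and was not tested there once endothelial-rich cells were left out. Lower than in fibroblast clusters were Lum, Myoc, Pdgfra, Cilp, Apod, Itgbl1, Cilp2, Slurp1, Comp and Spp1, with Comp, a cartilage and tendon matrix protein, at 14.8, 0, 26.9 and 35.2 CPM against 4844, 10448, 7449 and 12516 CPM.

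**Figure D2:**
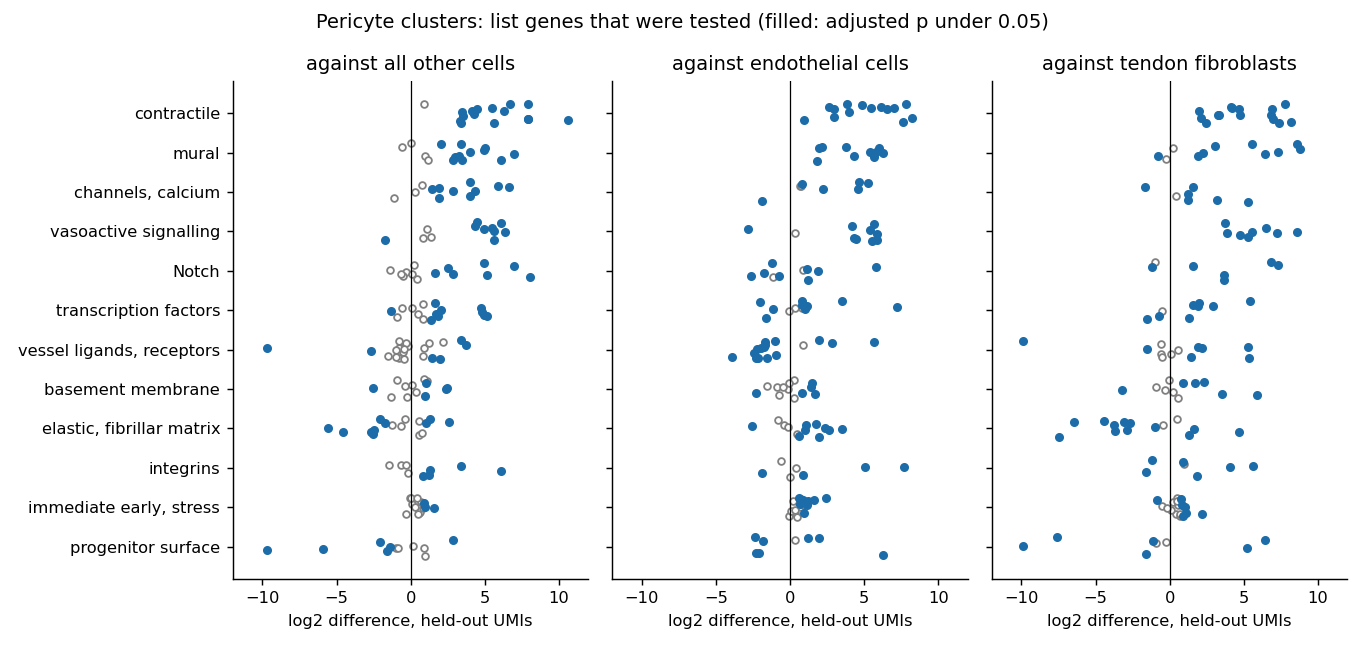
Log2 difference between the pericyte clusters and all other cells, the endothelial clusters or the tendon fibroblast clusters (3 panels) on held-out UMIs, for each tested gene of the lists named on the vertical axis; filled points have an adjusted p under 0.05. Contractile genes, and vasoactive genes other than Npr1, lie to the right in all panels, at list medians from 4.69 to 5.42, and vessel ligands and receptors lie mostly to the left against endothelial cells.

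At full depth the clustering split the pericytes into 2 clusters, but with cells thinned to equal UMIs it gave 1 pericyte cluster, which held 99 of the 104 labelled pericytes deep enough to thin. Of the 2 full-depth clusters, formed on the clustering part of the UMIs, the larger held 83 labelled pericytes (48, 21, 3 and 11 in libraries 1 to 4) and the smaller 24 (7, 4, 8 and 5). Library 3 alone had more cells in the smaller cluster than in the larger. UMIs of the 18 contractile genes made up a median of 4.87% of a cell's UMIs in the larger cluster and 0.838% in the smaller, while the 18 mural genes made up 0.497% and 1.40%. Without endothelial-rich cells the clusters held 75 and 17 cells, with contractile medians of 5.16% and 0.894% and mural medians of 0.470% and 1.62%. Median depth in these was 9080 and 5593 UMIs. These shares are over all UMIs, including those that formed the clusters.

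**Figure D3:**
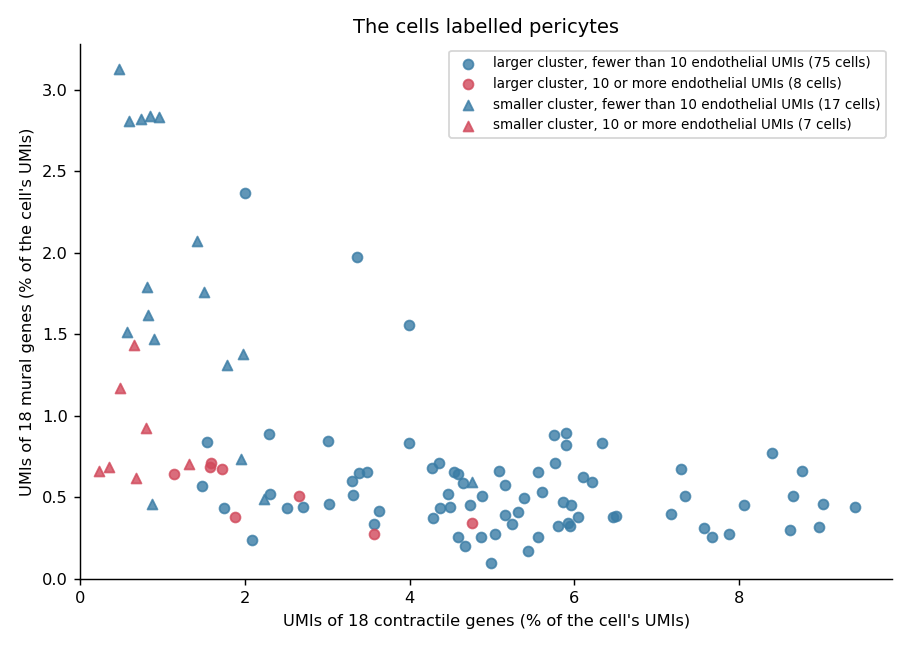
Share of UMIs from 18 contractile genes (horizontal axis, %) and from 18 mural genes (vertical axis, %) in each labelled pericyte; circles are the larger cluster, triangles the smaller, and red marks the 15 cells with 10 or more endothelial UMIs. The contractile share runs from 0.221% to 9.40% and the mural share from 0.0972% to 3.13%.

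On the held-out UMIs, and without endothelial-rich cells, contractile genes were lower and several mural genes higher in the smaller cluster in each library. Values rest on few cells: 3 larger-cluster cells in library 3 and 3 to 6 smaller-cluster cells per library, where 1 UMI is worth 129.9 CPM in the former and 71.4 to 88.2 CPM in the latter. They are therefore given as a description. Among 2526 genes at 100 CPM or more in either cluster, 7.64% were higher in the smaller cluster with no overlap between the libraries of either cluster, and 7.68% were lower. Of the contractile list 10 of 17 were lower in the smaller cluster with no overlap, and of the mural list 6 of 16 were higher; none went the other way. Acta2 stood at 11401, 13108, 7406 and 13794 CPM in the larger cluster and 6614, 2285, 1030.0 and 1299 CPM in the smaller. Every smaller-cluster value lay below every larger-cluster value, yet all were far above the 48.4 CPM of the next label. Rgs5 stood at 1111, 1819, 1039.5 and 2127 CPM in the larger and 4851, 8853, 14763 and 8403 CPM in the smaller. Kcnj8 stood at 5.50, 0, 0 and 0 CPM and 265, 357, 343 and 382 CPM, 1 against 17 UMIs, and its partner Abcc9 at 11.0, 24.4, 0 and 17.2 CPM and 176, 499.8, 1202 and 229 CPM. Pln ran the other way, at 506, 772, 129.9 and 532 CPM and 0 in every library of the smaller cluster. Notch3 did not separate the clusters, at 979, 1105, 1559 and 978 CPM and 706, 1499, 1373 and 917 CPM.

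Of the elastic and fibrillar matrix genes at 100 CPM or more, 4 of 13 were higher in the smaller cluster without overlap and none lower. Of the basement membrane genes 2 of 10 were higher and 2 lower, and of the integrins 1 of 5 was lower. Over all genes at that level 7.64% were higher and 7.68% lower. Col3a1, a fibrillar collagen, stood at 77.0, 122, 0 and 85.8 CPM in the larger cluster and 5291, 5783, 2747 and 3437 CPM in the smaller, and Sparc, a collagen-binding matrix protein, at 2062, 2428, 2729 and 1647 CPM and 6526, 7639.6, 7982 and 7639 CPM. Pdgfrb stood at 401, 495, 519.8 and 360.3 CPM and 1852, 2213, 1459 and 2215 CPM. All were higher in the smaller cluster without overlap, as were Col1a1, Col5a3, Lamb1, Nid1, Steap4, Vtn (vitronectin), Nrp1, Cxcl12 and Foxs1. Col1a1 is on the fibroblast marker list, of which 3 of 10 genes reached 100 CPM and 1 was higher in the smaller cluster without overlap; the part of fibroblast RNA in these values was not tested. Itga8 stood at 335, 374, 389.8 and 240.2 CPM in the larger cluster and 176, 0, 0 and 0 CPM in the smaller. Mef2c stood at 1133, 918, 1039.5 and 703 CPM and 88.2, 71.4, 343 and 306 CPM, and Zfhx3, Foxc1, Itpr1, Atp2b4, Ryr2, Lamb2 and Col18a1 were likewise lower in the smaller cluster in every library. So were Fos, Jun, Junb and Egr1 of the immediate-early list (4 of 18), genes known to respond to tissue dissociation; their part in the pattern was not tested.

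**Figure D4:**
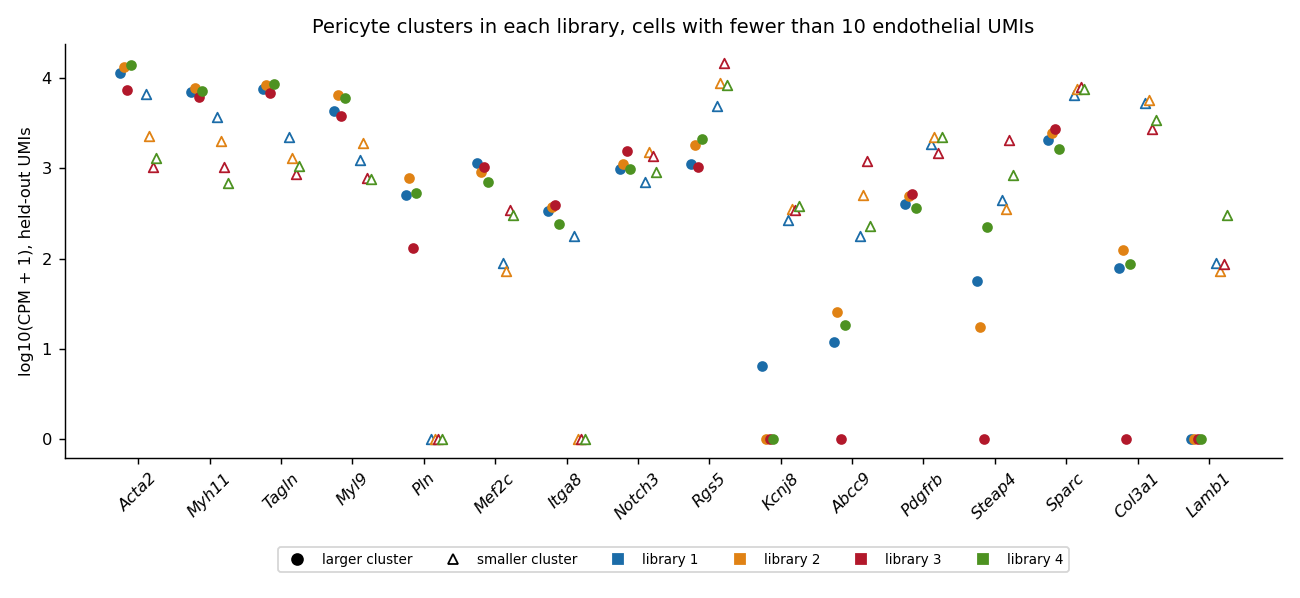
Level of 16 genes, as log10(CPM + 1) of held-out UMIs, in the larger (filled circles) and the smaller (open triangles) pericyte cluster of each library (colour), without endothelial-rich cells. Contractile genes from Acta2 to Pln are lower in the smaller cluster, Notch3 overlaps, and Rgs5, Kcnj8, Abcc9, Pdgfrb, Sparc and Col3a1 are higher.

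Genes outside the contractile list were then tested against it. In each library the pericytes were cut at the library's median contractile share into an upper and a lower side, the UMIs of each side were summed, and the contractile genes were left out. The cut stood at 4.54%, 4.75%, 0.894% and 4.91% in libraries 1 to 4, so the upper side of library 3 began far lower. That side held 2 smaller-cluster cells. The cut makes a range and not a type, and 19 cells lay within 10% of it. All 15 endothelial-rich cells and 21 of the 24 smaller-cluster cells were on the lower side. Of 2785 genes, 139 (4.99%) were higher on the upper side and 160 (5.75%) lower. The 10 largest falls were Ly6c1, Egfl7, Adgrl4, Sox17, C130074G19Rik, Rasip1, Ly6a, Flt1, Cldn5 and Cdh5, and Egfl7, for one, had 0 UMIs on the upper side and 163, 129, 777 and 142 CPM on the lower. With those 15 cells left out and the median taken again, 53 (3.36%) of 1579 genes were higher and 49 (3.1%) lower, 81 of them called in both, and none of those 10 endothelial genes was among the tested. Leaving out library 2 lowered the count over all cells from 299 to 74 genes, and leaving out library 1 to 143. A fit without the library as a block called 179.

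Dstn (destrin, which takes actin filaments apart) stood at 4653, 5182, 2081 and 4627 CPM on the upper side and 2168, 2418, 348 and 821 CPM on the lower (log2 difference 1.78 ± 0.27 SE, edgeR adjusted p = 8.30e-04). The upper value was the higher one in every library, and the 2 ranges overlapped only through library 3. Sorbs2 stood at 1458, 2023, 353 and 1597 CPM and 599, 704, 143 and 227 CPM (log2 difference 1.82 ± 0.27 SE, edgeR adjusted p = 7.86e-04), and Igfbp4, an IGF-binding protein, at 1644, 2313, 943 and 2325 CPM and 642, 1009.5, 327 and 255 CPM (log2 difference 1.84 ± 0.30 SE, edgeR adjusted p = 0.00143). Cpxm2, Adamtsl1, Fbxl22, Nkd1 (an inhibitor of Wnt signalling), Myom1, Prkag2 (a subunit of the AMP-activated kinase) and Mtss1l completed the 10 largest, with log2 differences of 2.68 to 1.78. Without endothelial-rich cells the 10 were Fbxl22, Msrb1, Phldb2, Tgfb3, Kif13a, 2900026A02Rik, Tcf15, Dstn, Itpk1 and Camk2g, from 1.58 to 1.33. Dstn then differed by 1.36 ± 0.30 SE (edgeR adjusted p = 0.00733), Sorbs2 by 1.27 ± 0.26 SE (edgeR adjusted p = 0.00423) and Igfbp4 by 1.18 ± 0.24 SE (edgeR adjusted p = 0.00423). Adamtsl1 was no longer called (log2 difference 0.86 ± 0.33 SE, edgeR adjusted p = 0.128).

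Of 18 mural genes 15 were tested, 6 were lower on the upper side (Rgs5, Kcnj8, Abcc9, Pdgfrb, Higd1b and Steap4) and 2 higher (Rgs4 and Mcam). Without endothelial-rich cells 12 were tested and 4 were lower (Rgs5, Abcc9, Pdgfrb and Steap4), with none higher. Their medians were 0.077 and -0.12, beside -0.027 and -0.014 over all genes tested; the first is above 0 although more members were called lower than higher. Rgs5 stood at 833, 604, 3090.0 and 269.9 CPM on the upper side and 1851, 5168, 16830.1 and 6847 CPM on the lower without those cells (log2 difference -2.73 ± 0.36 SE, edgeR adjusted p = 7.65e-05), and over all cells the difference was -2.07 (edgeR adjusted p = 0.0110). The lower side was higher in every library, and library 3 was high on both sides. Mgp, an inhibitor of calcification, stood at 10.4, 373, 659 and 13.5 CPM and 2198, 3788, 7289 and 2336 CPM (log2 difference -4.51 ± 0.44 SE, edgeR adjusted p = 1.10e-06). Col3a1 stood at 72.5, 199, 507 and 40.5 CPM and 672, 1705, 2894 and 1683 CPM (log2 difference -3.32 ± 0.30 SE, edgeR adjusted p = 5.23e-07), and the other genes named by the rule were Nrp1, Steap4, Adamts12, Cd36 (a fatty acid receptor of capillaries), Abcc9, Col6a1 and 1 entry whose symbol the table gives as a date. Of the elastic and fibrillar matrix list 5 of 10 were lower on the upper side (Col1a1, Col3a1, Mgp, Sparc and Timp3), against 4 lower and 1 higher of 12 over all cells.

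Of the 20 vasoactive signalling genes 11 were tested over all cells, 4 were higher on the upper side (P2rx1, Gucy1a1, Pde3a and Rgs4) and 1 was lower (Rgs5). Without endothelial-rich cells 9 were tested, 0 were higher and 1, Rgs5, was lower, with 3 at an unadjusted p under 0.05 by edgeR. Kcna5, a voltage-gated potassium channel, was higher in both (log2 difference 1.63 ± 0.32 SE, edgeR adjusted p = 0.00508; 1.57 without). Without those cells Kcna5 was higher in 3 of 4 libraries, with library 4 at 135 CPM against 145 CPM. Ano1 was called without those cells only, at 98.4, 124, 253 and 108 CPM on the upper side and 352, 308, 697 and 334 CPM on the lower (log2 difference -1.54 ± 0.27 SE, edgeR adjusted p = 0.00122); over all cells its adjusted p was 0.163. Notch3 was not called, at 1058, 1038, 1375 and 928 CPM and 967, 1179.8, 675 and 729 CPM (log2 difference 0.32 ± 0.22 SE, edgeR adjusted p = 0.411), nor was Ednra (log2 difference 0.25 ± 0.28 SE, edgeR adjusted p = 0.696), and without those cells their differences were -0.082 and -0.19. Klf4 was lower on the upper side in both (log2 difference -1.46 ± 0.23 SE, edgeR adjusted p = 0.00124; -0.99 without), and so was Hsp90aa1 of the immediate-early and heat shock list (-1.05 and -0.76). Of the Notch list Nrip2 was higher over all cells (1 of 9 tested; DESeq2 called 1), and of the basement membrane list Lama5 (1 of 10). Without those cells edgeR called 0 of 6 and 0 of 8, with 1 gene of each list at an unadjusted p under 0.05.

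**Figure D5:**
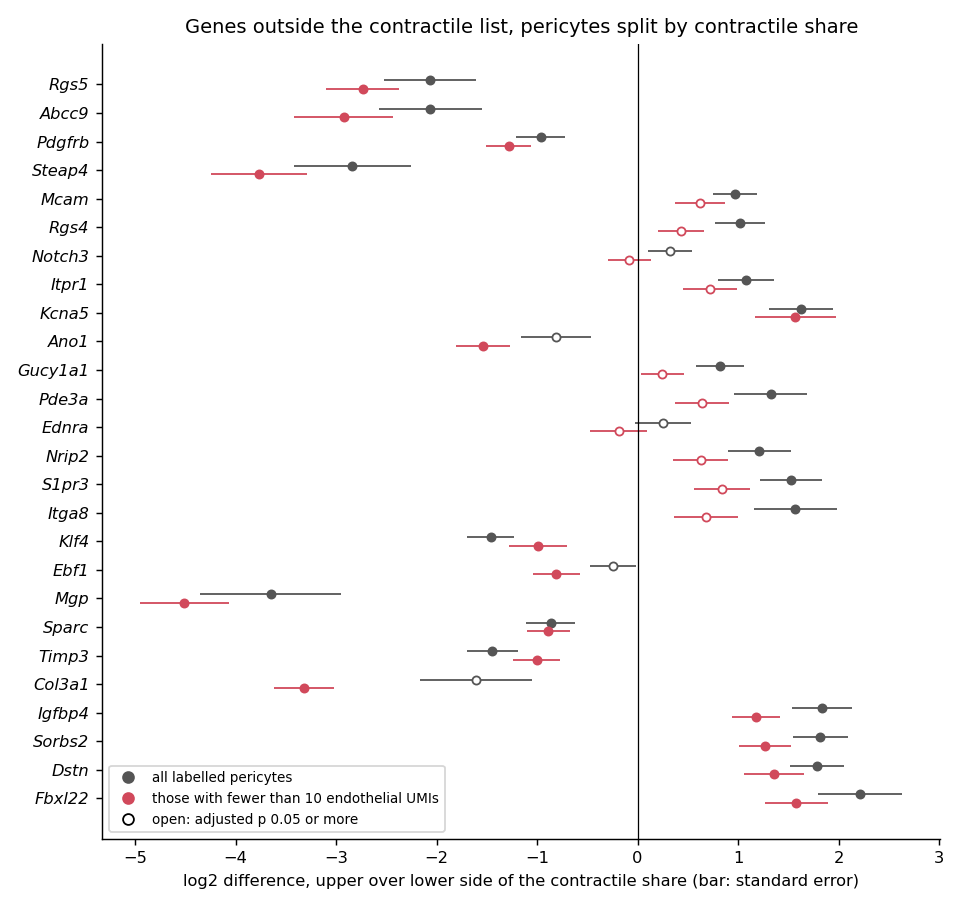
Log2 difference between the upper and the lower side of the contractile share (points, with bars of 1 standard error) for genes outside the contractile list, over all pericytes (grey) and without the 15 endothelial-rich cells (red); open points have an adjusted p of 0.05 or more. Rgs5, Abcc9, Pdgfrb, Steap4, Mgp and Sparc are lower on the upper side in both, Igfbp4, Sorbs2, Dstn and Fbxl22 are higher in both, and Notch3 and Ednra lie near 0.

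The same cut made on the mural share gave few calls. It stood at 0.509%, 0.532%, 1.47% and 0.643% in libraries 1 to 4. Of 2629 genes 1 was higher on the upper side (0.038%) and 0 lower; edgeR put 253 at an unadjusted p under 0.05, and DESeq2 called 2. The called gene was Meg3, a long non-coding RNA, at 655, 699.5, 2678 and 946 CPM on the upper side and 77.8, 196, 489.7 and 47.7 CPM on the lower (log2 difference 2.69 ± 0.38 SE, edgeR adjusted p = 0.0361). The ranges did not overlap, and library 3 was highest on both sides. Without endothelial-rich cells its log2 difference was 2.02 ± 0.47 SE, higher in 4 of 4 libraries, and did not pass (edgeR adjusted p = 0.0989). Of the contractile list 16 were tested and 0 called, at a median of -1.24, with 13 at an unadjusted p under 0.05 by edgeR and 0 called by DESeq2. Acta2 stood at 7705, 8346, 1080.4 and 2279 CPM on the upper side and 10394, 13421, 3146 and 15566 CPM on the lower (edgeR adjusted p = 0.347), lower on the upper side in all 4 libraries. Without endothelial-rich cells 6 of 1633 genes (0.367%) were lower on the upper side and 0 higher. EdgeR put 192 at an unadjusted p under 0.05. Fos, Fosb, Atf3, Nr4a1 and Nr4a2 of the 6 are transcription factors known to be induced quickly by stimuli, and Tgm2 is a transglutaminase. Of the 18 tested genes of the immediate-early list 4 were among them. Fos stood at 1372, 1190.2, 239 and 674 CPM on the upper side and 3056, 5605, 739 and 1977 CPM on the lower (log2 difference -1.66 ± 0.27 SE, edgeR adjusted p = 0.0227), lower in each library.

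Across single pericytes the genes most alike to Acta2 were of its own kind. Over all pericytes and 1923 genes, with depth-scaled counts centred within libraries, they were Tpm2, Myl9, Myl6 (a myosin light chain), Tagln and Dstn, with Spearman correlations of 0.808 to 0.860. Those most alike to Rgs5 were Sparc, Abcc9, Col3a1, Meg3 and Col6a1, at 0.629 to 0.675. Rgs5 ran against Acta2 (-0.502) and Myh11 (-0.532). Without endothelial-rich cells Nrp1 led the genes alike to Rgs5 (0.679). The cells share libraries and differ in depth, so these values are descriptions. The 15 genes that varied most beyond counting error were led by Loxl2 (UMIs in 28 cells) and Hdac1 (49 cells) and included the endothelial genes Plvap, Kdr, Edn1 and Ly6c1. Without endothelial-rich cells Loxl2 led again, and Mgp (in 33 of 92 cells), Col3a1, Col1a1, Thbs1, Id4 and the stress genes Hspa1a and Atf3 were among the 15.

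The pericytes of library 3 stood apart in several of these values. Its 11 pericytes had the lowest contractile sum, 14319 CPM over 18 genes against up to 48206 in another library, and the highest mural sum, 13929 CPM against 5658 at the lowest. 8 of them were in the smaller cluster. Their median depth was 5593 UMIs, against 8326, 11769 and 10418 in libraries 1, 2 and 4, and their median mitochondrial share 9.64%, against 7.35% to 9.40%. The 2 endothelial-rich cells of library 3 held 15785 and 20196 of its 74379 pericyte UMIs, at contractile shares of 0.646% and 0.678%. The part of these cells, of depth and of the low number of cells in these levels was not tested.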

How the data were processed

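Achilles tendon cells of 4 libraries from 1 group of mice were profiled with the 10x Chromium 3' assay. The authors deposited raw UMI counts per gene and cell, with a table that gives each cell's library and 1 of 13 labels. The submitters' processing notes name Cell Ranger, Seurat 2.3.4, R 3.5.2 and the build mm10. Their roles, the filters on cells and any removal of doublets are not given in the sources used here; no further filter was applied, and the shallowest cell held 1010 UMIs. Of 15750 gene entries, 4 under a repeated name were left out (0.0186% of UMIs), and some symbols have been turned into dates in the table.

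Counts were summed per library and scaled to CPM. For tests, sums of 3 or more cells were fitted with edgeR 4.0.16 (TMM, filterByExpr, quasi-likelihood test, library as block, Benjamini-Hochberg over all genes tested, adjusted p under 0.05). That filter can be met by the counts of a single group. A gene at or near 0 in the other group was therefore tested only because of its level in the first. The library pairs the sums because both come from the same cell suspension; deviations of the paired sums from their group means correlated by -0.198 to 0.178. UMIs were split with probability 0.5, and 1 part was clustered with scanpy 1.11.5 (2000 variable genes, 20 components, 15 neighbours, leiden resolution 1). Log2 differences are log2 fold changes of the first over the second group. The scripts were tested on simulated data. Alternatives included DESeq2 1.42.0, other filters, scalings, cuts and left-out libraries. Leaving out cells with 10 or more UMIs of 8 endothelial markers was chosen after seeing the data.

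The members, the gene lists and the tests were chosen with earlier results of these data known. Genes named from a test are the 10 largest rises and 10 largest falls among called genes that moved 1 way in all libraries and averaged 100 CPM or more on the higher side, plus members of the lists; 1 gene that the rule names is not reported here. Genes named from the labels are the 20 with the largest ratio to the next label. Variable genes are the 15 with the largest excess of variation over counting, among genes with at least 1 UMI per pericyte, and alike genes the 5 with the highest Spearman correlation. Promoter sequences are RefSeq's on GRCm38.p6. Total UMIs per library are given with the results.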

Additional observations from a re-analysis of the deposited data

Results flagged for a closer look

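Of 160 quantities screened over the pericytes of the 4 libraries, nearly all of them gene levels, 19 had 1 library whose gap to the nearest other exceeded Dixon's 95% limit for 4 values; chance gives about 1 in 20 groups. Library 3 was that library in 15 of them, and 8 of its 11 pericytes belong to the smaller cluster. It was the high one for 9: Mgp at 2796 CPM, the transcription factor Ebf1 at 1264 CPM, Cxcl12 at 955 CPM, Egfl7 at 511 CPM, Kcnj8 at 430.2 CPM, Kcne4 at 282 CPM, Itpr2 at 94.1 CPM, Lrg1 at 67.2 CPM and Npr1 at 53.8 CPM. It was the low one for 6: Cald1 (caldesmon) at 1398 CPM, Des at 349.6 CPM, Zfhx3 at 255 CPM, Ppp1r14a (an inhibitor of myosin phosphatase) at 53.8 CPM, Cap2 at 40.3 CPM and Map3k7cl at 0 CPM. All these values include the 2 endothelial-rich cells of library 3, which held 15785 and 20196 of its 74379 pericyte UMIs. Egfl7 is among the markers that defined such cells, and their part in these levels was not tested. In the pericytes of library 1 Actg2 stood out at 39.9 CPM and Ackr1 at 1.82 CPM, with 0 in the other libraries. In those of library 4 Npy1r was low at 371 CPM and Cilp high at 17.7 CPM. Pericyte UMIs numbered 550691, 342881, 74379 and 226404 in libraries 1 to 4. The levels of Ackr1, Cilp, Lrg1, Npr1 and Ppp1r14a given here therefore rest on very few UMIs and lie near the floor.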

How the results depend on the processing

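Values rest on few pericytes, 11 of them in library 3, and a lowly counted gene could miss the filter without being absent. RLE size factors, sums of 5 or more cells, a new random split of UMIs and a finer clustering left every count of called genes that they were run on within 1.5 times its value. Without a filter on low counts the contractile split called 617 genes, the mural split 51, and the comparisons with all other cells, endothelial cells and fibroblasts 1957, 2052 and 2063. With cells thinned to equal UMIs they called 55, 2, 376, 338 and 213, on fewer UMIs. The authors' labels with all UMIs in place of held-out clusters gave 1306, 1985 and 1800. Without endothelial-rich cells the contractile split called 102, the mural split 6 and the comparison with all other cells 1398. The mural split called 2 genes by DESeq2, 5 when cut at the median over all pericytes and 34 between the highest and the lowest of 3 equal groups. Without the library as a paired block the contractile split called 179 genes and the mural split 0; the block changed no other count by over 1.5 times. Leaving out 1 library at a time gave 74 to 275, 0 to 2, 365 to 923, 828 to 1420 and 806 to 1228 called genes in the same order. Genes 4-fold higher in labelled pericytes numbered 232 at 2-fold, 502 with no minimum CPM and at most 143 with 1 library left out. The pericyte share was 26.3% of pericytes and endothelial cells, and 7.98% to 11.4% with 1 library left out. Of the values for single genes, 3 changed sign, none of them called there: without endothelial-rich cells Ednra and Notch3 differed by -0.19 and -0.0818 in the contractile split, and Cxcl12 by -0.78 against fibroblasts. A further 126 were no longer called, 2 became called and 1277 kept their direction and side of the threshold; the cause was not tested.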

Other observations

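Of 8 mitochondrial isoform genes 7, 6 and 6 were tested against all other cells, endothelial clusters and fibroblast clusters, and 2, 4 and 1 were higher, where 7.28%, 15.8% and 17.1% of all genes tested were. Cox4i2, a subunit of cytochrome oxidase needed for oxygen sensing in the lung, stood at 88.9, 75.9, 108 and 162 CPM on the test part against 1.30, 2.44, 7.35 and 0 CPM in endothelial clusters (CPM ratio 50.4, 95% counting interval 16.6 to 250.5, edgeR adjusted p = 2.42e-05), without overlap, and did not pass the test against fibroblast clusters (log2 difference 0.20, edgeR adjusted p = 0.617). Against endothelial clusters it passed the filter on low counts through the pericytes alone, so that call is a description. Ndufa4 was lower than in endothelial clusters (log2 difference -0.71 ± 0.21 SE, edgeR adjusted p = 0.0211).

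Immediate-early and heat shock genes, known to respond to tissue dissociation, were higher in part. Of 18, all of them tested, 3, 8 and 6 were higher, and 1 (Jund) was lower against fibroblasts. Over all genes tested 7.28%, 15.8% and 17.1% were higher. Without endothelial-rich cells 2, 6 and 4 of the list were higher, beside 11.6%, 18.1% and 18.7% of all genes tested. Nr4a1, an orphan nuclear receptor, was higher in each, at 581, 1074, 485 and 733 CPM against 152, 651, 142 and 103 CPM in all other cells (log2 difference 1.57 ± 0.34 SE, edgeR adjusted p = 0.0138); it was higher in each library, and library 2 was highest on both sides.

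Of 12 genes used to mark progenitor or stem-like stromal cells, 11 were tested against all other cells. Mcam was higher and 5 were lower (Cd34, Ly6a, Nt5e, Lepr and Pdgfra), beside 7.28% and 6.09% of all genes tested. Tppp3, which marks cells of the tendon sheath, stood at 138, 157, 67.2 and 274 CPM in labelled pericytes, and held-out values were higher than in endothelial clusters (log2 difference 1.23 ± 0.40 SE, edgeR adjusted p = 0.0303) and lower than in fibroblast clusters (log2 difference -1.10 ± 0.33 SE, edgeR adjusted p = 0.0167). Cspg4 (NG2, a pericyte proteoglycan) stood at 249, 239, 202 and 216 CPM and was higher than in endothelial clusters (log2 difference 6.25 ± 0.39 SE, edgeR adjusted p = 3.02e-07), but did not pass against fibroblast clusters (log2 difference -0.26, edgeR adjusted p = 0.453). In cells thinned to equal UMIs it had a UMI in 40.4% of pericytes and 49.7% of Tendon fibroblasts 1. Of 12 chemokine and cytokine genes 3 were tested against all other cells and 0 called by edgeR (0 at an unadjusted p under 0.05, 0 called by DESeq2). Of 12 cell cycle genes 1 was tested and 0 called (0 at an unadjusted p under 0.05, 0 by DESeq2).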
